A study of Mus musculus with 16 samples.

Results

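The potassium channel genes were taken as every gene of the deposited count table whose symbol starts with Kcn followed by a lower-case letter, which gave 90 of the 19799 genes with a symbol. By symbol, 39 encode voltage-gated pore subunits, 14 inward rectifiers, 14 two-pore channels, 8 calcium- or sodium-activated channels and 15 auxiliary subunits or regulators. RNA sequencing had been run on 16 libraries of pmi28, a mouse myoblast line, in 6 groups. The msx2 line carried inducible msx2 and GFP transgenes and gave 3 libraries of induced myotubes, 3 of uninduced myotubes and 2 of uninduced myoblasts. The GFP line carried an inducible GFP transgene alone and gave 3, 3 and 2 libraries of the same groups. Myotubes had formed over 3 days in 10% horse serum, had been caught on a mesh that lets single-nucleus cells through, and had been kept with AraC, which kills dividing cells, for 3 days. Induction was 2 µg/ml doxycycline for 24 h in growth medium with 20% fetal bovine serum, so doxycycline and, as far as the labels say, that serum came together. The labels do not give the medium of uninduced myotubes over those hours, the promoter of the transgenes or whether a line is 1 clone, and do not state that the replicates were separate cultures. The p-values therefore rest on library-to-library spread that may be technical.

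Potassium channels let potassium leave or enter the cell along its gradient and so set the resting potential and end the action potential. In skeletal muscle, inward rectifiers hold the resting potential, ATP-sensitive channels follow the energy state, and fast voltage-gated channels of the Kv3 type and calcium-activated channels shape repolarisation. In human myoblasts, hyperpolarisation through EAG1, encoded by KCNH1, and then Kir2.1, encoded by KCNJ2, is known to precede fusion into myotubes. Msx2 is a homeobox transcription factor known mainly as a repressor in limb and skull development.

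The members with the largest changes after msx2 induction are shown by their promoters, since Msx2 and the muscle regulatory factors bind DNA. The sequences are from RefSeq's table for GRCm38.p6, 250 bases before to 50 after the first start site listed, 5′ to 3′ on the gene's strand. Of the 90 members, 65 had an entry. Shown are the pair of members that fell at least 2-fold (Kcnj2 and Kcnc4) and the 3 with the largest rises among those with an entry (Kcnc1, Kcnh2 and Kcnip3). Capitals mark the E-box CANNTG, the core word bound by muscle regulatory factors and its own reverse complement, and the homeobox word TAATTG on either strand (CAATTA on the other); neighbouring matches were allowed to overlap.
Kcnj2, chr11:111065914-111066213, plus strand: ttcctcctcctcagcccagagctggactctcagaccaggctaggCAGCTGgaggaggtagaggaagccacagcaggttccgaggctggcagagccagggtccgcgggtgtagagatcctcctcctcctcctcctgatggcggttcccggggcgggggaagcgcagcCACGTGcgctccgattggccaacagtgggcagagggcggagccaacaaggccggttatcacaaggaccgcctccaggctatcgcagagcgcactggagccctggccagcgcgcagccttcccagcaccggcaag
Kcnc4, chr3:107458849-107459148, minus strand: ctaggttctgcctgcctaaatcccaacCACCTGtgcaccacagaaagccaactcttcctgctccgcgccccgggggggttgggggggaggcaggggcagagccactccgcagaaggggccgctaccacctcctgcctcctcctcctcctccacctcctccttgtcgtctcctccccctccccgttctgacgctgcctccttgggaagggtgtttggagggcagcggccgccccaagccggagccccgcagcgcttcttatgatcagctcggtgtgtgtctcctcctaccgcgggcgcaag
Kcnc1, chr7:46396218-46396517, plus strand: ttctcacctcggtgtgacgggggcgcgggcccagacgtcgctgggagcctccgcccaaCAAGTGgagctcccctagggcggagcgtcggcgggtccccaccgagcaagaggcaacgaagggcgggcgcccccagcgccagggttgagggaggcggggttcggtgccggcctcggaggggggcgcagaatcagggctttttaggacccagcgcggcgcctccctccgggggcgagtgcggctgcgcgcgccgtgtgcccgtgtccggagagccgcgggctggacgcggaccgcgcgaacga
Kcnh2, chr5:24329542-24329841, minus strand: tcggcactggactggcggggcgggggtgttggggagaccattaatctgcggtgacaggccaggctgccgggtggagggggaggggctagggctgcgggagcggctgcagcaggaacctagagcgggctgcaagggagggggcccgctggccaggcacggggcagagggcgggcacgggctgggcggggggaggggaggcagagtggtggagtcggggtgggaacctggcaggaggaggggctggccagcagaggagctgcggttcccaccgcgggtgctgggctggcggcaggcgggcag
Kcnip3, chr2:127522045-127522344, minus strand: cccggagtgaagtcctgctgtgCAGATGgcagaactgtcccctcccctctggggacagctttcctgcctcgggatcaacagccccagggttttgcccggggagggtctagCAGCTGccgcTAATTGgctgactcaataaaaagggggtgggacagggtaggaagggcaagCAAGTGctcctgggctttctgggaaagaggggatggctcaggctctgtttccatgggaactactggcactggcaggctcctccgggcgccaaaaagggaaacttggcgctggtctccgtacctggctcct
The Kcnj2 window held 2 E-boxes, Kcnc4 and Kcnc1 held 1 each, Kcnip3 held 3 and 1 homeobox word, and Kcnh2 held neither. An E-box stood in 70.8% of the 65 member promoters, against 72.1% of all 27025 promoters of that length. The homeobox word stood in 6.15% of the member promoters, against 8.15% of all promoters. Among members with an entry that rose with msx2 induction, 8 of 9 held an E-box and 1 held the homeobox word, and among those that fell the counts were 6 and 1 of 8.

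Of the 90 members, 69 had enough reads to be tested, among 16245 genes in all, and the other 21 never passed 0.579 CPM (counts relative to library size, scaled by TMM) in any library, with 5 to 81 reads over the 16 libraries. The untested included Kcna1, Kcna4, Kcne1, Kcnj8 (the Kir6.1 pore of ATP-sensitive channels) and Kcne3, the partner of Kv3.4 in skeletal muscle. Libraries held 19784873 to 33092666 counts. The transgene's gene, Msx2, stood at 1340, 1460 and 1510 CPM in msx2-line induced myotubes, against 12.1, 15.9 and 13.2 CPM in msx2-line uninduced myotubes, and at 0.803 to 1.59 CPM in the 8 GFP-line libraries. Replicate 2 of the myotube groups stood low for some members and replicate 1 of the msx2-line myoblasts stood high for Kcnip1, as given at those genes. All 8 skeletal myotube markers looked up, among them Ttn and Ryr1, were expressed in every group. Their summed level was 11600 to 14600 CPM in msx2-line induced myotubes, against 22800 to 26700 in msx2-line uninduced ones. The markers did not fall alike: 6 of the 8 were called lower and 0 higher. Myh3 averaged 2080 CPM in msx2-line induced myotubes, against 8270 CPM in uninduced ones, while Ckm averaged 404 CPM, against 339 CPM. The part of the fall in the summed level in the results below was not tested.

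Relative to gene length, levels are on the scale of CPM per kb of annotated exon. Kcns3, a silent voltage-gated subunit that forms no channel by itself, averaged 35.4 CPM per kb in msx2-line induced myotubes, against 40.0 in uninduced ones, and 41.5 in GFP-line induced myotubes, against 43.4 in uninduced ones. Kcnh6, which encodes an ERG channel, stood at 25.7 and 27.1 CPM per kb in the uninduced myotubes of the msx2 and GFP lines. In myoblasts Kcns3 had the highest level per length of all members, at 69.7 and 64.6 CPM per kb in the msx2 and GFP lines. Summed over all members, the level was 1635 ± 93.5 CPM in msx2-line induced myotubes (SD, n = 3), 1306 ± 84.5 in uninduced ones (n = 3) and 1104 ± 298.5 in msx2-line myoblasts (n = 2). In the GFP line the sums were 1384 ± 39.3 and 1404 ± 26.2 CPM in induced and uninduced myotubes (n = 3 each) and 870.0 ± 20.2 in myoblasts (n = 2). In such bulk samples fewer cells of a type and less RNA per cell cannot be told apart.

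**Figure D1:**
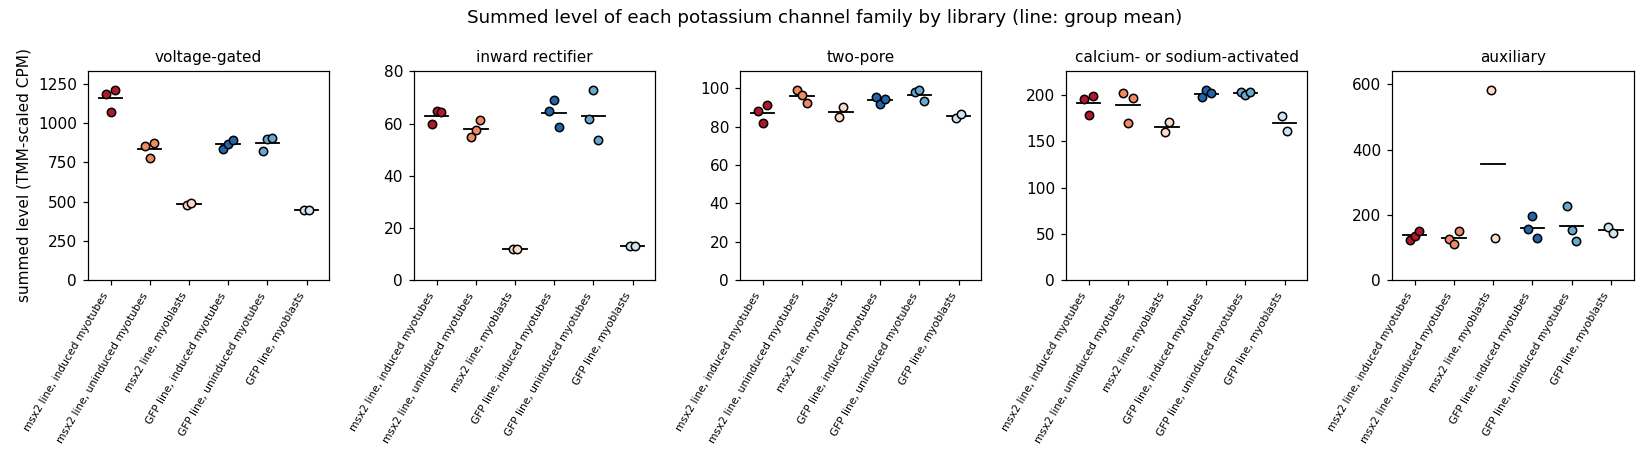
Summed level (TMM-scaled CPM, linear axes from 0) of the 5 families in each library, with points for libraries and lines for group means. The voltage-gated sum is highest in the 3 msx2-line induced libraries, the inward rectifier sum is low in all 4 myoblast libraries, and 1 msx2-line myoblast library stands apart in the auxiliary sum, where Kcnip1 alone reaches 532 CPM.

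The voltage-gated sum was 1156 ± 74.7 CPM in msx2-line induced myotubes, against 832.7 ± 51.4 in uninduced ones (SD, n = 3 each). The inward rectifier sum was 58.0 ± 3.23 CPM in msx2-line uninduced myotubes, against 11.9 ± 0.0495 in msx2-line myoblasts, and 62.7 ± 9.71 in GFP-line uninduced myotubes, against 13.0 ± 0.00707 in GFP-line myoblasts. The two-pore sum differed little between the 6 groups, from 85.5 to 96.7 CPM. Kcnk2 alone averaged 52.8 to 64.35 CPM in these groups, so the sum says little about the other two-pore members.

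With differentiation of myoblasts into myotubes, the members that were called moved mostly upward. Of the 69 tested members, 46 were higher and 12 lower in msx2-line uninduced myotubes than in msx2-line myoblasts, by edgeR's quasi-likelihood test with Benjamini-Hochberg adjustment over all genes at 0.05. Over all tested genes 40.8% were called higher and 39% lower in that comparison, so most of those genes were called as well. In the GFP line 45 members were higher and 13 lower, against 39.8% and 37.9% of all tested genes. The median log2 change was 1.54 over the tested members in the msx2 line, against 0.0759 over all tested genes, and 1.29 in the GFP line, against 0.0573. The direction was shared: 45 members were called higher in both lines, 10 lower in both, and none in opposite directions. Agreement between the lines was not counted over all tested genes, so it is not shown to be particular to the members. The difference between the lines' changes passed for 4.01% of all tested genes upward and 4.27% downward. With upper-quartile scaling the median of all genes moved to 0.292 and 0.204 in the msx2 and GFP lines, and small changes are to be read relative to that shift.

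Kcna7, which encodes Kv1.7, stood at 7.78, 8.21 and 7.6 CPM in msx2-line uninduced myotubes, against 0.223 and 0.329 CPM in msx2-line myoblasts, a log2 change of 4.80 ± 0.23 (SE, as for all log2 changes here). In the GFP line it stood at 9.41, 6.93 and 7.27 CPM in uninduced myotubes, against 0.187 and 0.182 CPM in myoblasts, a log2 change of 5.37 ± 0.26, so that it was nearly absent from the myoblasts of both lines.

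Other voltage-gated subunits rose in both lines too, among them some of the fast Kv3 type. Kcnc1 (Kv3.1) stood at 17.2, 14.3 and 18.7 CPM in GFP-line uninduced myotubes, against 0.7 and 0.958 CPM in GFP-line myoblasts, a log2 change of 4.33 ± 0.49. Kcnc4 (Kv3.4) stood at 20.4, 11.9 and 32.9 CPM in those myotubes, against 0.373 and 0.228 CPM in the myoblasts, a log2 change of 6.16 ± 1.09, and its second replicate was the lowest of every myotube group. Kcnf1, another silent subunit, rose by 1.09 ± 0.28 in the msx2 line and 1.08 ± 0.29 in the GFP line, and Kcnh1 (EAG1) by 0.71 ± 0.15 and 0.63 ± 0.15.

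Among inward rectifiers the rise covered 7 of the 11 tested members in each line. Kcnj2, the Kir2.1 pore, stood at 21.3, 15.7 and 17.4 CPM in GFP-line uninduced myotubes, against 2.47 and 2.69 CPM in GFP-line myoblasts, and rose by 3.44 ± 0.30 in the msx2 line and 2.81 ± 0.27 in the GFP line. Kcnj12 (Kir2.2) rose by 2.40 ± 0.26 in the msx2 line and 2.45 ± 0.27 in the GFP line. Kcnj11, the Kir6.2 pore of ATP-sensitive channels, stood at 2.73, 1.66 and 1.62 CPM in GFP-line uninduced myotubes, against 0.0933 and 0 CPM in GFP-line myoblasts, with a log2 change of 5.26 ± 0.77. Kcnj15 (Kir4.2) also rose, by 3.48 ± 1.03 in the msx2 line and 2.77 ± 0.99 in the GFP line, but was uneven, at 0.549, 4.05 and 1.81 CPM in the msx2-line uninduced myotubes, and did not pass in the GFP line without myoblast replicates 1 or 2 or uninduced myotube replicate 3 (adjusted p 0.0546 to 0.12), or in the msx2 line without myoblast replicate 2 (0.0679). Kcnj14 (Kir2.4) was the inward rectifier that fell, at 0.91, 0.774 and 0.412 CPM in GFP-line uninduced myotubes, against 1.91 and 1.87 CPM in GFP-line myoblasts.

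The calcium-activated channels moved in both directions. Kcnn3, which encodes the small-conductance channel SK3 known from immature and denervated muscle fibres, stood at 64.4, 55.6 and 69.7 CPM in GFP-line uninduced myotubes, against 1.07 and 1.6 CPM in GFP-line myoblasts, and rose by 4.67 ± 0.27 on the log2 scale in the msx2 line and 5.56 ± 0.29 in the GFP line. Kcnma1, the large-conductance BK channel, rose by 2.20 ± 0.17 and 2.36 ± 0.17. Kcnn4, the intermediate-conductance channel KCa3.1 known from proliferating cells, went the other way, at 10.3, 16.1 and 9.65 CPM in GFP-line uninduced myotubes, against 35.6 and 32.8 CPM in GFP-line myoblasts, and fell by 1.68 ± 0.19 in the msx2 line and by 1.51 ± 0.19 in the GFP line. Kcnn2 (SK2) fell in both lines by a smaller amount, with log2 changes of -0.70 ± 0.08 and -0.69 ± 0.08 in the msx2 and GFP lines.

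Other members that fell in both lines were Kcnk6 (TWIK2; -1.35 ± 0.20 in the msx2 line and -1.61 ± 0.21 in the GFP line), the BK subunit Kcnmb4 (-0.89 ± 0.16 and -0.71 ± 0.16), Kcns3 (-0.80 ± 0.06 and -0.57 ± 0.06) and Kcnq5, an M-current subunit (-0.33 ± 0.06 in each, but -0.11 with an adjusted p of 0.092 in the msx2 line with upper-quartile scaling). Kcnab3, a cytoplasmic beta subunit of Kv1 channels, and Kcnip3, a calcium-binding Kv4 partner also known as the transcriptional repressor DREAM, fell by 1.55 ± 0.23 and 1.25 ± 0.26 in the msx2 line and by 1.07 ± 0.24 and 1.00 ± 0.26 in the GFP line. Kcnk2 (TREK1) passed with log2 changes of -0.19 ± 0.07 in each line, a size within the shift between scalings, and with upper-quartile scaling it stood at 0.02 in the msx2 line and -0.05 in the GFP line, neither past the threshold.

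Kcnip1, another Kv4 partner, rested on 1 library. It stood at 532 CPM in replicate 1 of the msx2-line myoblasts, 78.2 CPM in replicate 2, and 37.4 to 152 CPM in the other 14 libraries. It was called lower in msx2-line uninduced myotubes than in msx2-line myoblasts (log2 change -2.58 ± 0.69, adjusted p = 0.00494). Without that library the log2 change was -0.63 with an adjusted p of 0.345, and in the GFP line it was -0.27 ± 0.69. The same library gives the wide spread of the summed msx2-line myoblast level above.

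Induction of msx2 changed 25 of the 69 tested members, 17 upward and 8 downward, between msx2-line induced and uninduced myotubes. Over all tested genes 16.2% were called higher and 16.3% lower, against 24.6% and 11.6% of the tested members. Of those called, 11 were at least 2-fold higher and 2 at least 2-fold lower, against 4.6% and 2.71% of all tested genes called at that size. The median log2 change over tested members was -0.073, against -0.0106 over all tested genes. With the sign dropped, the median was 0.317 over tested members, against 0.216 over all tested genes. With the replicate number as a block the count was 28, 17 of them higher and 11 lower, the 3 gained being Kcnn3, Kcnma1 and Kcnd2 (log2 change -0.25 with an adjusted p of 0.0457, against 0.0664 without the block). In a fit of only these 6 libraries Kcnh3, Kcnk18, Kcnq5 and Kcns3 were lost (adjusted p = 0.057, 0.0563, 0.0744 and 0.16), and without both libraries numbered 2 Kcnj12, Kcnk5, Kcng2 and Kcns3 were lost (0.126, 0.11, 0.0922 and 0.104).

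**Figure D2:**
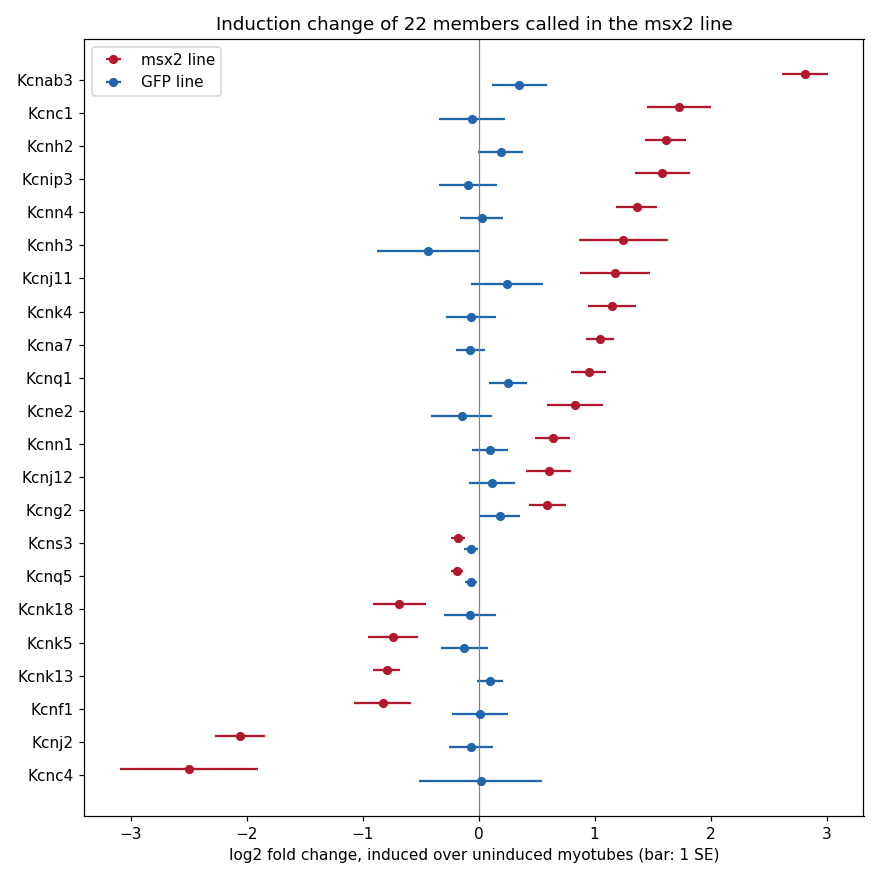
Log2 fold change of induced over uninduced myotubes (points, bars 1 SE) for 22 members called in the msx2 line, in the msx2 line (red) and in the GFP line (blue). The msx2-line values run from 2.81 for Kcnab3 to -2.50 for Kcnc4, and the GFP-line values lie between -0.44 and 0.35.

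In the GFP line, which received the same doxycycline, no member was called with induction, higher or lower, by edgeR, none reached an unadjusted p of 0.05, and DESeq2 also called 0. The share called over all tested genes was 0.0308% higher and 0% lower there. The difference between the inductions, the msx2-line change minus the GFP-line change, passed for 13 members, 10 positive and 3 negative, against 9.15% and 8.78% of all tested genes. Among the positive ones were Kcnab3, Kcnc1, Kcnip3, Kcnh2, Kcnn4, Kcnk4, Kcna7 and Kcnq1, and the negative ones were Kcnc4, Kcnj2 and Kcnk13. That of Kcnq1 was lost without 1 library in most of the 16 cases, with adjusted p up to 0.116. With the replicate block 19 members passed, and those gained included Kcnf1 (-0.84, adjusted p = 0.00134), Kcnn1 (0.55, 0.0106), Kcnj11 (0.97, 0.0287), Kcne2 (0.96, 0.0324) and Kcnn3 (-0.39, 0.0464), whose adjusted p without the block was 0.0726 to 0.318.

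The fall of Kcnj2 was among the clearest. It stood at 2.75, 2.4 and 5.02 CPM in msx2-line induced myotubes, against 13.6, 12.6 and 16.4 CPM in msx2-line uninduced ones, which is 4.15-fold lower (log2 change -2.05 ± 0.22, adjusted p = 3.62e-06). Every induced library lay below every uninduced one, and above the 1.25 and 1.36 CPM of msx2-line myoblasts. GFP-line myotubes stood at 18.5, 14.6 and 18.7 CPM induced and 21.3, 15.7 and 17.4 CPM uninduced, with no separation. Kcnj12, another Kir2 pore, moved the opposite way, at 39.8, 43.2 and 43.3 CPM in msx2-line induced myotubes, against 26.5, 27.7 and 28.7 CPM in uninduced ones (log2 change 0.60 ± 0.20, adjusted p = 0.0292), though its adjusted p was 0.0616 to 0.0826 without any 1 of 5 of those 6 libraries. Kcnj11 stood at 4.1, 3.23 and 3.84 CPM in induced myotubes, against 2.54, 1.28 and 1.28 CPM in uninduced ones (log2 change 1.18 ± 0.30, adjusted p = 0.00652). The Kir2 members Kcnj4 (Kir2.3) and Kcnj14 (Kir2.4) did not pass, with log2 changes of 0.47 ± 0.32 and -0.03 ± 0.29. Kcnj16, the neighbour of Kcnj2 on chromosome 11, did not pass, with a log2 change of 0.32 ± 0.25.

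The Kv3 genes Kcnc4 and Kcnc1 moved in opposite directions. Kcnc4 (Kv3.4) stood at 3.04, 1.89 and 7.29 CPM in msx2-line induced myotubes, against 31.2, 10.4 and 28.8 CPM in uninduced ones, 5.65-fold lower (log2 change -2.50 ± 0.60, adjusted p = 0.00666). Kcnc1 (Kv3.1) stood at 61.9, 38.7 and 53 CPM in induced myotubes, against 21.6, 10.3 and 15 CPM in uninduced ones, 3.30-fold higher (log2 change 1.72 ± 0.28, adjusted p = 0.000362). Replicate 2 was the lowest library of Kcnc4 and Kcnc1 in every myotube group. For Kcnc4 the difference between the inductions, -2.51 ± 0.80 (adjusted p = 0.0482), was lost without any 1 of 12 libraries (adjusted p 0.0529 to 0.116), the exceptions being msx2-line uninduced replicate 2 and induced replicate 3, and GFP-line uninduced replicate 3 and induced replicate 2.

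**Figure D3:**
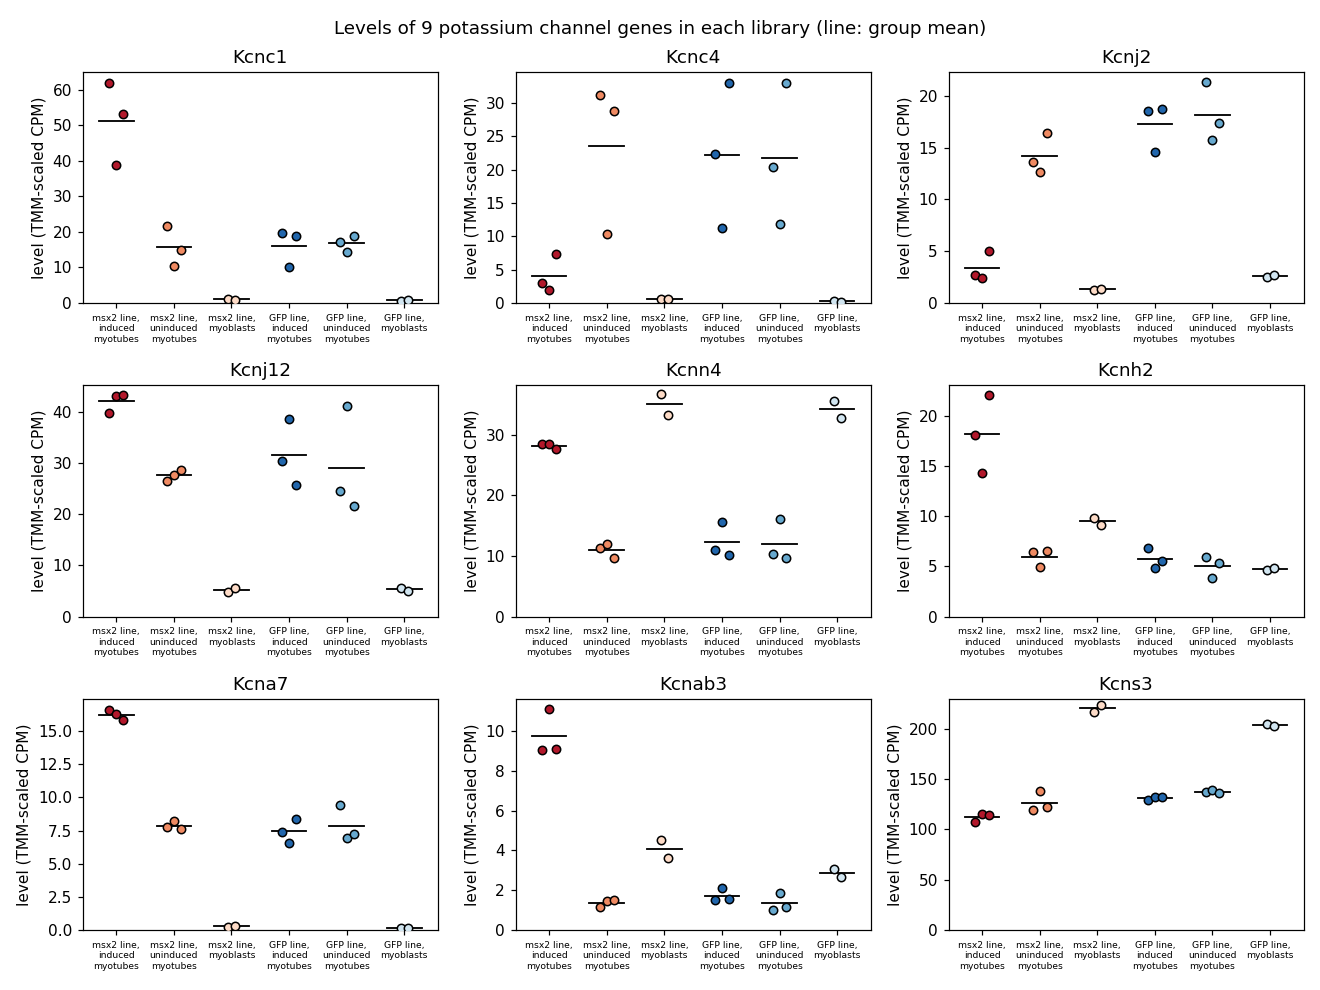
Level (TMM-scaled CPM, linear axes from 0) of 9 members in each library, with points for libraries and lines for group means. Kcnc1, Kcna7, Kcnh2, Kcnn4 and Kcnab3 are higher in the 3 msx2-line induced libraries than in every other myotube library, and Kcnj2 and Kcnc4 lower.

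Kcna7 stood at 16.6, 16.3 and 15.8 CPM in induced myotubes, against 7.78, 8.21 and 7.6 CPM in uninduced ones (log2 change 1.05 ± 0.12). Kcnq1, the pore of the slow delayed rectifier in heart, rose by 0.95 ± 0.15. Kcnq1 has a known antisense transcript that is not analysed here, and the strand setting of the counting is not given, so its reads may include antisense ones. Kcnh2, the ERG1 channel of cardiac repolarisation, stood at 18.1, 14.3 and 22.1 CPM in induced myotubes, against 6.39, 4.91 and 6.57 CPM in uninduced ones (log2 change 1.61 ± 0.18, adjusted p = 4.58e-06), above the 9.85 and 9.08 CPM of msx2-line myoblasts as well. Its relative Kcnh6 did not pass, with a log2 change of -0.10 ± 0.07, nor did Kcnh1, with 0.04 ± 0.13. Kcnh3 (ELK2) was called higher, at 0.972, 1.06 and 1.99 CPM in induced myotubes, against 0.798, 0.675 and 0.311 CPM in uninduced ones, but did not pass without replicate 3 of either group (adjusted p = 0.11 and 0.138 without the uninduced and the induced one).

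The silent subunits were called in both directions. Kcnf1 stood at 43, 34.3 and 47.6 CPM in induced myotubes, against 82.9, 55.2 and 83.6 CPM in uninduced ones (log2 change -0.83 ± 0.25, adjusted p = 0.0206), and its adjusted p was 0.0551 to 0.0787 without any 1 of 4 of these libraries. Kcng2, a further silent subunit, was higher by 0.59 ± 0.16. Kcns3 and Kcnq5 passed with log2 changes of only -0.18 ± 0.06 and -0.19 ± 0.05. Of these 2, Kcns3 was lost without uninduced replicate 2 (adjusted p = 0.124) or induced replicate 1 (adjusted p = 0.112).

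Among calcium-activated channels, Kcnn4 stood at 28.4, 28.4 and 27.7 CPM in msx2-line induced myotubes, against 11.3, 12 and 9.59 CPM in uninduced ones, 2.57-fold higher (log2 change 1.36 ± 0.18, adjusted p = 3.87e-05). Its myoblast level was 36.8 and 33.3 CPM in the msx2 line. Kcnn1 (SK1) rose by 0.64 ± 0.15 (adjusted p = 0.00429). Kcnn2 did not pass, with a log2 change of 0.01 ± 0.07. Kcnn3 and Kcnma1 did not pass, with log2 changes of -0.40 ± 0.17 (adjusted p = 0.0906) and -0.32 ± 0.13 (adjusted p = 0.064), but with the replicate block they were -0.39 (adjusted p = 0.00361) and -0.32 (adjusted p = 0.018).

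Two-pore channels, which carry resting leak currents, were called 1 higher and 3 lower of 10 tested. Kcnk4 (TRAAK) stood at 2.32, 2.05 and 2.53 CPM in induced myotubes, against 1.05, 1.17 and 0.903 CPM in uninduced ones (log2 change 1.15 ± 0.21, adjusted p = 0.00044). Kcnk13 (THIK1) stood at 4.82, 3.94 and 5.02 CPM in induced myotubes, against 8.18, 7.14 and 8.56 CPM in uninduced ones (log2 change -0.79 ± 0.12, adjusted p = 7.73e-05). Kcnk5 (TASK2) and Kcnk18 (TRESK) were lower by log2 changes of -0.74 ± 0.21 and -0.69 ± 0.23. Kcnk5 was lost without induced replicates 1 or 2 (adjusted p = 0.0675 and 0.0545), and Kcnk18 without any 1 of 4 libraries (adjusted p 0.0651 to 0.152). Kcnk2, the most abundant two-pore member per length, did not pass, with -0.09 ± 0.07.

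Of the 11 tested auxiliary members 3 were called, all higher. Kcnab3 had the largest fold of any member, at 9.04, 11.1 and 9.07 CPM in msx2-line induced myotubes, against 1.15, 1.46 and 1.49 CPM in uninduced ones, 7.02-fold higher (log2 change 2.81 ± 0.20, adjusted p = 5.13e-08), and above the 4.5 and 3.62 CPM of msx2-line myoblasts. Kcnip3 stood at 4.73, 9.29 and 8.22 CPM in induced myotubes, against 2.15, 2.49 and 2.74 CPM in uninduced ones (log2 change 1.58 ± 0.24, adjusted p = 8.58e-05). Kcne2, a small single-span subunit, rose by 0.83 ± 0.24 (adjusted p = 0.0136) but was lost without replicate 3 of the uninduced or of the induced group (adjusted p = 0.057 and 0.0815). The beta subunits Kcnab1 and Kcnab2 did not pass, with -0.20 ± 0.10 and 0.30 ± 0.16.

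**Figure D4:**
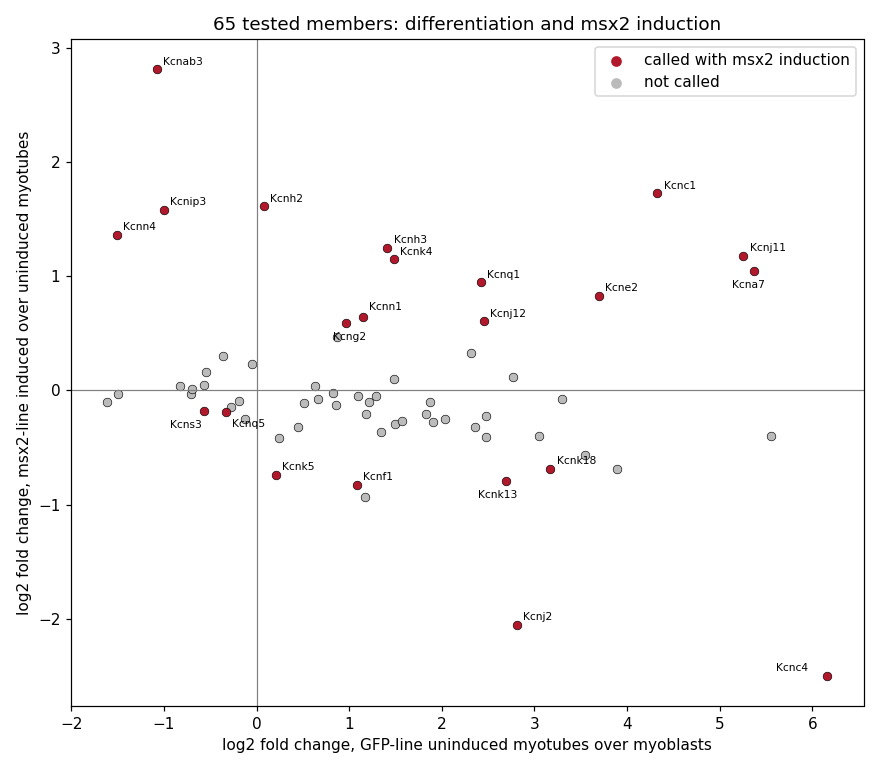
Log2 fold change with differentiation in the GFP line (uninduced myotubes over myoblasts, horizontal) and with induction in the msx2 line (induced over uninduced myotubes, vertical) for 65 tested members, red where called with msx2 induction. Called members stand in all 4 quadrants, with Kcnc4 and Kcnj2 at the lower right and Kcnab3, Kcnip3 and Kcnn4 at the upper left.

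The differentiation comparison of the GFP line and the msx2 induction comparison share no library, so their calls can be set side by side. Of the 45 members that rose with GFP-line differentiation, 13 rose further with msx2 induction (of the 17 that rose with induction), 5 fell (of the 8 that fell) and 27 were not called. Of the 13 that fell with differentiation, 3 rose with induction, 2 fell and 8 were not called. The 3 were Kcnab3, Kcnip3 and Kcnn4, the 5 were Kcnj2, Kcnc4, Kcnf1, Kcnk13 and Kcnk18, and the 2 were Kcns3 and Kcnq5. Among the 13 were Kcna7, Kcnc1, Kcnj11 and Kcnj12. With msx2 induction 16.2% of all tested genes were called higher and 16.3% lower. How those calls split by differentiation was not counted over all genes, so these counts show nothing particular to the members.

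The 2 lines were also set against each other without induction. In uninduced myotubes no member was called higher or lower in the msx2 line than in the GFP line by edgeR, none had an unadjusted p under 0.05, and DESeq2 called 0 with 1 under that level. All tested genes gave 0.00616% higher and 0.0554% lower. In myoblasts 4 members were higher and 1 lower in the msx2 line, against 9.09% and 7.24% of all tested genes, which is a share near or below that background. The msx2-line myoblasts had 7 of the 8 myotube markers called higher, with summed levels of 1370 to 1390 CPM, against 722 to 741 CPM in GFP-line myoblasts, and their part in these results was not tested. Kcnh2, Kcnk13 and Kcnh6 were higher by 1.00 ± 0.23, 0.86 ± 0.20 and 0.28 ± 0.08, and Kcnk10 (TREK2) was lower, with -0.79 ± 0.19. Kcnh6 lost the call without any 1 of the 4 myoblast libraries. It also lost the call with upper-quartile scaling (adjusted p = 0.0948) and with a filter of 5 CPM in 3 libraries (0.0549). Kcnh2 lost the call without GFP-line myoblast replicate 1 or 2 or msx2-line replicate 1. Kcnk10 lost it without GFP-line replicate 1 or 2 or msx2-line replicate 2. Kcnk13 lost it without GFP-line replicate 1 or msx2-line replicate 2. The difference between the 2 differentiations passed for 0 members upward and 3 downward, among them Kcnk13 and Kcnh6, against 4.01% and 4.27% of all tested genes.

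Partners of the channels outside the symbol rule, a list of 20 genes with 19 tested, were called 14 higher and 3 lower with msx2-line differentiation and 13 higher and 3 lower in the GFP line, where 40.8% and 39% of all tested genes were called in the msx2 line and 39.8% and 37.9% in the GFP line. With msx2 induction 2 were higher and 5 lower, against 16.2% and 16.3% of all tested genes. Hcn2, a pacemaker channel of mixed sodium and potassium current, stood on average at 17.1 CPM in msx2-line induced myotubes, against 5.25 CPM in uninduced ones (log2 change 1.70 ± 0.13, adjusted p = 1.24e-07). Abcc8, the sulfonylurea receptor SUR1 that pairs with Kcnj11, rose by 0.91 ± 0.24 (adjusted p = 0.00869), while Abcc9, the receptor SUR2 of muscle, did not pass, at 109.1 CPM in induced myotubes, against 108.1 CPM in uninduced ones. Tmem38b, a potassium channel of the sarcoplasmic reticulum, was lower by a log2 change of -0.91 ± 0.11, and Tmem38a, the muscle form, did not pass, with -0.01 ± 0.07. Amigo1, a cell adhesion protein, was lower with -0.50 ± 0.14.

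Pumps and cotransporters that move potassium, a list of 31 genes of which 29 were in the table and 26 tested, were called 9 higher and 7 lower with msx2 induction, against 16.2% and 16.3% of all tested genes. With differentiation 18 were higher and 4 lower in the msx2 line, against 40.8% and 39% of all tested genes, and 17 and 4 in the GFP line, against 39.8% and 37.9%. The sodium pump's beta subunit Atp1b1 averaged 207.8 CPM in msx2-line induced myotubes, against 78.9 CPM in uninduced ones, with a log2 change of 1.40 ± 0.21. The sodium, calcium and potassium exchangers Slc24a2 and Slc24a4 were lower with -1.11 ± 0.12 and -1.78 ± 0.41.

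Because some of these genes are known from nerve and heart, markers of other cells were looked up. Of 6 neuron markers 1 was called with msx2 induction and it was lower (Stmn2, 99.4 CPM in induced myotubes, against 289 CPM in uninduced ones), and the list's summed level was 140 to 193 CPM, against 297 to 431 CPM. Of the 4 tested of 5 cardiomyocyte markers 2 were higher in msx2-line induced than in uninduced myotubes, Nppb averaging 5.96 CPM, against 1.06 CPM, and Tnni3 averaging 2.18 CPM, against 0.42 CPM. That list summed to 290 to 492 CPM in induced myotubes, against 223 to 353 CPM in uninduced ones. Of the 4 leukocyte markers tested, 1 was higher and 1 lower. Csf1r averaged 6.03 CPM in msx2-line induced myotubes, against 0.719 CPM in uninduced ones, and Itgam 16.5 CPM, against 20.9 CPM. Cd68 averaged 1.86 CPM, against 1.23 CPM, and Ptprc 1.41 CPM, against 1.56 CPM. Their sum was 24.8 to 27.1 CPM, against 23.3 to 26.2 CPM. Of the 6 proliferating myoblast markers Pax7 was higher (9.25 CPM, against 3.31 CPM) and Myf5 lower (1.58 CPM, against 6.3 CPM), with the summed level at 25.4 to 60.8 CPM, against 27.4 to 38.3 CPM. Of the other lists, 2 of 6 smooth muscle markers were higher and 1 lower, and none of 5 endothelial, 4 tested fibroblast or 2 tested glial markers was called. What part these genes' cells or programmes have in the member results was not tested.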

How the data were processed

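Stranded mRNA libraries of 16 samples were sequenced, per the labels' protocols. The authors deposited whole-number read counts per gene; the submitters' processing notes name the build mm9 and TopHat2 (2.0.11), SAMtools (0.1.19) and edgeR (3.6.8). The annotation, the counter and its strand option were not given in the sources used here. The table had 19866 entries, and the 67 lacking symbols, with 0.06009% to 0.08775% of a library's counts, were dropped. Counts were fitted with edgeR 4.0.16 in R 4.3.3: robust quasi-likelihood fit of all 16 libraries with 1 coefficient per group, TMM scaling, filterByExpr with a minimum count of 10, two-sided tests, Benjamini-Hochberg adjustment over 16245 genes, threshold 0.05. Levels are TMM-scaled CPM. Printed log2 changes are edgeR's moderated ones, and SEs come from the unmoderated change and the F statistic. Genes of 0 reads in a group have no SE. DESeq2 1.42.0, other scalings and filters, a replicate block, fits of only the groups compared and libraries left out served as alternatives.

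Members and gene lists were chosen with earlier results of these data known. Named were members called with msx2 induction or in the difference of inductions at 1 CPM or more, the 10 largest differentiation changes each way called in both lines, up to 5 each way elsewhere, members with a known muscle role and members at 10 CPM or more, and, chosen after their values were seen, a few others as contrasts; a few genes under this rule are not reported here. Same-numbered libraries deviated together in the induction comparisons (correlation of deviations from group means 0.207 to 0.508 in the msx2 line and 0.359 to 0.453 in the GFP line) and between lines in uninduced myotubes (0.177 to 0.288), so the numbers were taken to pair those libraries, from the data and not the labels. In differentiation they did not (-0.0103 to 0.0113). Replicates differed by more than sampling noise (chi-square per degree of freedom 1.95 for GFP-line myoblasts, 10.5 to 31.3 elsewhere). Exon lengths came from GENCODE for GRCm38 (all 90 members matched by symbol) and assume that reads fall in exons; promoters came from RefSeq's GRCm38.p6 table, a later build than the counts' mm9, so no count coordinates were used. Exons of Kcnh7 share 4.6% of their bases with a gene on the opposite strand, so its reads are uncertain. The fit was tested on simulated data with known changes before use. SEs cover counting error and the library-to-library spread estimated by the fit, and SDs are the spread between libraries. That spread may be technical.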

Additional observations from a re-analysis of the deposited data

Results flagged for a closer look

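These results were singled out because an effect differed between the 2 lines by a test of the difference itself. Of the differences between the inductions (msx2-line change minus GFP-line change, log2), positive ones were 2.46 for Kcnab3, 1.78 for Kcnc1, 1.67 for Kcnip3 and 1.42 for Kcnh2. Those of Kcnn4, Kcnk4, Kcna7 and Kcnq1 were 1.33, 1.21, 1.12 and 0.69. The negative ones were -2.515 for Kcnc4, -1.99 for Kcnj2 and -0.89 for Kcnk13. Kcnq1 (adjusted p = 0.0444) and Kcnc4 (0.0482) stood close to the threshold and were lost in most fits that left out 1 myotube library. Both were also lost without a low-count filter (adjusted p = 0.0502 and 0.0773) and in a fit of only the groups compared (0.0632 and 0.0664), and Kcnq1 with DESeq2 (0.0678).

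The difference between the differentiations (msx2 line minus GFP line, log2) was -0.93 for Kcnk13 and -0.36 for Kcnh6. For both genes the uninduced myotubes of the lines had no called difference while the msx2-line myoblasts stood higher, Kcnk13 at 2.14 and 2.55 CPM, against 1.17 and 1.41 CPM in GFP-line myoblasts. Kcnk13 was lost in a fit of only the groups compared (adjusted p = 0.0533), without msx2-line myoblast replicate 2 (0.0811) and without GFP-line myoblast replicates 1 or 2 (0.114 and 0.0543). Kcnh6 (adjusted p = 0.0499) was lost in most fits that left out 1 library, and with upper-quartile scaling (0.111), without a low-count filter (0.0597), with the 5 CPM filter (0.0711) and in a fit of only the groups compared (0.145).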

How the results depend on the processing

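The counts of called members kept within 1.5 times the value above under DESeq2, without a low-count filter, with upper-quartile or RLE scaling, and without both msx2-line myotube libraries numbered 2, where msx2 induction gave 23 members. The replicate block, for which the induction numbers pair the samples, gave 28 members for msx2 induction, 19 for the difference of inductions and 5 for the difference of differentiations, against 25, 13 and 3; members that gained a call with it in the induction comparisons include those named above. A filter of 5 CPM in 3 libraries left fewer members to test and gave 38 in the msx2 line and 37 in the GFP line for differentiation. Fitting only the groups compared gave 1 for the difference of differentiations. Leaving out 1 library at a time gave 19 to 27 for msx2 induction, 10 to 14 for the difference of inductions, 1 to 6 for the lines in myoblasts and 1 to 4 for the difference of differentiations. Without GFP-line myoblast replicates 1 or 2 the counts of the lines in myoblasts were 1 and 2, without msx2-line myoblast replicate 1 the count was 3, and the difference of differentiations gave 1 without either GFP-line myoblast library. Kcnk2 in msx2-line differentiation turned to 0.02 with upper-quartile scaling (0.0249) and with the 5 CPM filter (0.0138). On the raw library total the summed level was 1805 CPM in msx2-line induced myotubes and 794 CPM in GFP-line myoblasts. The causes were not tested. No limit of detection was measured; SEs of the log2 change with GFP-line differentiation reached 1.09 (Kcnc4).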

Other observations

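Members differed by gene span. Of the 23 tested members whose annotated gene spans over 100 kb, 1 was higher and 1 lower with msx2 induction and 0 of the calls were 2-fold or more. Of the 46 with spans up to 100 kb, 16 were higher, 7 lower and 13 at least 2-fold. The median size of the log2 change, sign dropped, was 0.189 in the long members and 0.598 in the short ones. Over all tested genes with a gene model the same medians were 0.216 over 2281 long genes and 0.217 over 13022 short ones, with 37.8% and 31.9% called. At 2-fold or more, 5.52% of these long genes and 7.76% of the short ones were called. With GFP-line differentiation 17 of the long members were higher and 4 lower (median log2 change 1.29), and 28 and 9 of the short ones (1.28). Over all tested genes with a gene model, 1175 long ones were higher and 719 lower (median 0.351). Of the short ones 4888 were higher and 5121 lower (median 0.00281). Of the long members, the one called higher with msx2 induction was Kcnq1 and the one called lower was Kcnq5. Long members not called include Kcnip4, Kcnma1, Kcnd2, Kcnq3, Kcnh7 and Kcnn2. The 100 kb limit was chosen after seeing the data, and no test was made.

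E-boxes were also counted per promoter. At least 3 stood in 4 of the 9 promoters of members that rose with msx2 induction (Kcna7, Kcnip3, Kcnk4 and Kcnn1), 0 of the 8 that fell and 3 of 33 not called, against 17.5% of all promoters. This was seen after the values were known, over few promoters, and carries no test.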
